A study of Mus musculus with 2 samples.

Results

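Migratory dendritic cells of the healing wound were taken as the cells that carried RNA of Ccr7, Fscn1 and MHC class II together. Among cells with at least 500 UMIs (unique molecular identifiers, 1 for each captured RNA molecule), at least 300 genes and at most 15% of UMIs on mitochondrial genes, a cell entered the gate with at least 2 UMIs of Ccr7, at least 2 of Fscn1 and at least 5 of H2-Aa, and with fewer than 2 UMIs summed over Cd3d, Cd3e and Cd3g. The gate held 139 of 24649 cells, of which 64 of 11443 were from the WT_LW library and 75 of 13206 from the TLR9agonist_LW library. The levels of these genes chose the cells, and their values below are therefore descriptions.

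Both libraries came from dorsal skin of male C57BL/6J mice of WT genotype, aged 6 to 8 weeks, that had healed from a large circular wound (LW) of 1.8 cm in diameter. WT_LW wounds were sprayed with PBS on days 0, 3 and 6 after wounding, and TLR9agonist_LW wounds with ODN2395, a CpG oligonucleotide that activates Toll-like receptor 9, on the same days and at 4 µg per treatment. The treatments are given as the labels state them, as do the study's methods, while a figure legend of the study names a control oligonucleotide for the first group. Tissue was collected 2 days after the scab detached, from a 5 mm disc at the wound centre. Cells of several mice were pooled into 1 library per group (6 mice by the study's results text, 5 samples by its methods), and neither sorting nor a reporter marked the dendritic cells. With 1 library per group there was no replicate, so no p-value is given. Levels carry exact Poisson 95% intervals, shares exact Clopper-Pearson 95% intervals, and ratios exact conditional 95% intervals. All of these cover counting error only and not the variation between mice, wounds or preparations. For levels and ratios of genes each UMI was counted as independent, so their intervals leave out the spread between cells as well.

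Dendritic cells take up antigen in the skin, and after maturation a part of them moves through lymphatic vessels to the draining lymph node, where they present it to T cells. This maturation brings CCR7, the receptor for the chemokines CCL19 and CCL21 that line the way to the node, and fascin (Fscn1), the actin-bundling protein of the long processes of mature dendritic cells. The same programme brings costimulatory molecules such as CD40 and CD86, the chemokines CCL22 and CCL17, which attract T cells through CCR4, and in some of the cells IL-12p40 (Il12b), a subunit shared by IL-12 and IL-23. NF-kB proteins drive much of it, which is why the promoters of its secreted products are shown here. The next lines give the 250 bases before the start of Ccl22 (chr8:94745434-94745683), Ccl17 (chr8:94810203-94810452) and Il12b (chr11:44399813-44400062), all plus strand of GRCm38.p6 from RefSeq, 5′ to 3′, with capitals for matches on either strand to GGGGANTTT, a form of the NF-kB motif chosen after these sequences had been read.
Ccl22: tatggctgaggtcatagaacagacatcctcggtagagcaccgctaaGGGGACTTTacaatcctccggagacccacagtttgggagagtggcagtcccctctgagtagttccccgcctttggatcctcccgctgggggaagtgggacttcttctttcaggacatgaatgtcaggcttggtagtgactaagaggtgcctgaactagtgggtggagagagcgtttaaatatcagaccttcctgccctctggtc
Ccl17: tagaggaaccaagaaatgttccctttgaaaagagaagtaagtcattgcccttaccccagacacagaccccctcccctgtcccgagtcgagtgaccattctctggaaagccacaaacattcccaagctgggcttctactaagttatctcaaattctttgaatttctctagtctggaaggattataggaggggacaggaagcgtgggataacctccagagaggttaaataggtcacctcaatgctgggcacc
Il12b: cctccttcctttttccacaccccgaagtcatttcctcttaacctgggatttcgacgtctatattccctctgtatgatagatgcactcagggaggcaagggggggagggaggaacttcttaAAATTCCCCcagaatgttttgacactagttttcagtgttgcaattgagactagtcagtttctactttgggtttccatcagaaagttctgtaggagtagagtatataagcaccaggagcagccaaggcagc
The match in Ccl22 lay on the plus strand and began 204 bases before the start, and the match in Il12b lay on the minus strand 130 bases before it. The Ccl17 window held none in these letters. Of 32851 mouse promoter windows of the same length, 333 (1.01%) held the motif, and a match describes the letters only.

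The 18 markers listed for migratory dendritic cells were all detected in the gate of both libraries, and their summed UMIs per cell ran from 18 through a median of 170.5 to 557 in WT_LW and from 9 through 135 to 393 in TLR9agonist_LW. As CPM (UMIs of a gene per 1000000 UMIs of the same cells) the list summed to 15995 in WT_LW and 8266 in TLR9agonist_LW, against 789 and 1215 in T cells (at least 5 Cd3 UMIs and no H2-Aa). Some genes that define other cells were not detected: Cd79a, Ms4a1 and Pax5 of B cells, Siglech of plasmacytoid dendritic cells, and Cd163 and Folr2 of macrophages had no UMI in the gate of either library, which allows a level of up to 3.76 CPM in WT_LW and 2.51 CPM in TLR9agonist_LW (3 UMIs per library). Xcr1 and Clec9a, which mark type 1 conventional dendritic cells, were seen in 1 of 64 and 3 of 75 cells. The other members of these lists were detected in part, with 4 and 5 of 10 B cell genes (60.2 and 61.9 CPM) and 10 and 8 of 12 genes of plasmacytoid dendritic cells (554 and 727 CPM). The list of migratory markers includes Ccr7 and Fscn1, which the rule used, and Ccr7 led it with 19.4% and 19.2% of its UMIs, so the check is partly fixed by the selection.

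Some gate cells also held RNA of other cell types. Summed over marker lists of keratinocytes, fibroblasts, endothelial cells, pericytes, Schwann cells, mast cells, B cells and macrophages, these markers took a median of 0.298% of a cell's UMIs in WT_LW (highest 4.49%) and 0.558% in TLR9agonist_LW (highest 12.4%). The fibroblast list (11 of 11 genes detected in each library) summed to 3179 CPM in the WT_LW gate and 16765 CPM in the TLR9agonist_LW gate, per cell 7 to 393 and 10 to 3900 UMIs. The keratinocyte list (13 of 13) summed to 1205 and 6681 CPM, per cell 1 to 310 and 4 to 2099 UMIs. T cells showed the same direction, with 4563 and 15302 CPM of the fibroblast list and 1756 and 5849 CPM of the keratinocyte list, so RNA of these tissues was more widespread in the TLR9agonist_LW library as a whole. The macrophage list (12 of 14) stood at 1285 and 1680 CPM in the gate, and the neutrophil list (8 of 9 in each) at 403 and 801 CPM, against 318 and 2115 CPM in T cells. Per gate cell the neutrophil list ran from 0 through a median of 0 to 280 UMIs in WT_LW. In TLR9agonist_LW it ran from 1 through 9 to 169. The summed WT_LW level thus rested largely on the 1 cell with 280 UMIs.

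**Figure D1:**
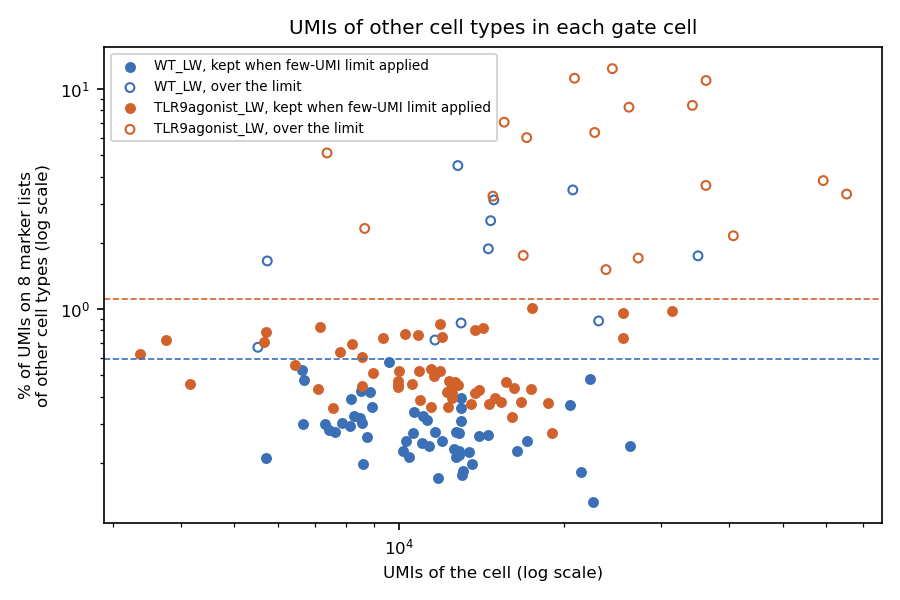
Percent of each gate cell's UMIs on the 8 marker lists of other cell types (y axis, log scale) against the cell's total UMIs (x axis, log scale), 1 point per cell, in WT_LW and TLR9agonist_LW; dashed lines mark the limit of 2 times the library's median. Of 64 WT_LW cells 11 lie above the limit, and of 75 TLR9agonist_LW cells 18 do, many of them among the deepest.

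Every result was therefore also computed over the 110 cells whose share stayed within 2 times the gate median of their library (53 in WT_LW, 57 in TLR9agonist_LW), here called the low-marker cells, a limit set after the data had been seen. The 29 cells left out were deeper than the rest, with median UMIs of 14530 in WT_LW and 24140 in TLR9agonist_LW. They held 171546 of the 797395 gate UMIs in WT_LW and 497806 of 1196225 in TLR9agonist_LW, so they weigh more in the summed levels of TLR9agonist_LW. Where no low-marker value is given below, a level is that of all gate cells. Over all gate cells the medians were 11690 (5518 to 35057) and 12470 (3357 to 65461) UMIs and 2728 and 2632 genes, while all filtered cells had medians of 5520 and 6311 UMIs. The libraries held 99374045 and 132339022 UMIs as deposited and shared 47 cell barcodes, none of which was in the gate. In the low-marker cells the fibroblast list fell to 1376 and 2937 CPM, the keratinocyte list to 644 and 1735 CPM and the macrophage list to 471 and 322 CPM. The neutrophil list, not among those used for the limit, stood at 495 and 749 CPM there. The WT_LW cell with 280 UMIs of it was kept. What part these RNAs have in the results below was not tested beyond this comparison.

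The gate took nearly the same share of both libraries. It held 0.559% (0.431 to 0.714) of the filtered cells of WT_LW and 0.568% (0.447 to 0.711) of those of TLR9agonist_LW, a log2 ratio of 0.02 (-0.48 to 0.53), and over the low-marker cells 0.463% and 0.432%. The other dendritic populations, held to the same H2-Aa and Cd3 limits, stood apart from it. Cells with at least 2 UMIs of Cd209a and no Ccr7, a marker of cDC2 or monocyte-derived dendritic cells, made up 1.31% (150 cells) of WT_LW and 0.416% (55 cells) of TLR9agonist_LW, a log2 ratio of -1.65 (-2.13 to -1.20). Langerhans-type cells with at least 2 UMIs of Cd207 and no Ccr7 made up 0.568% (65 cells) and 0.197% (26 cells), with a log2 ratio of -1.53 (-2.24 to -0.85). Cells with at least 2 UMIs summed over Xcr1 and Clec9a and no Ccr7 were 28 and 22, a log2 ratio of -0.55 whose interval (-1.43 to 0.30) held 0. These populations leave out cells with Ccr7. Within the same H2-Aa and Cd3 limits, 234 WT_LW and 325 TLR9agonist_LW cells, the gate among them, had at least 2 UMIs of it. How many of those carried Cd209a or Cd207 is not part of these shares. Of all cells with at least 5 UMIs of H2-Aa and fewer than 2 of Cd3, migratory cells were thus 3.25% of 1970 in WT_LW and 4.89% of 1533 in TLR9agonist_LW, a log2 ratio of 0.59 (0.09 to 1.09). The choice of denominator therefore decided whether the share looked equal or higher.

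The limits of the gate fell among few cells. Exactly 2 UMIs of Ccr7 were counted in 3 cells of each library, with median Ccl22 of 4 and 0 UMIs, and 5 cells in each missed the gate with exactly 1. Exactly 2 UMIs of Fscn1 were counted in 3 and 7 cells (median Ccl22 of 0 and 5 UMIs), 13 and 18 cells missed the gate with exactly 1 (median Ccl22 of 0 and 0.5), and a larger group, 157 and 232 cells, met all other criteria with no Fscn1 and had a median Ccl22 of 0. Below the H2-Aa limit stood 22 and 13 cells, with median Ccl22 of 8 and 3 UMIs. The Cd3 limit left out 9 and 19 cells.

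The genes of the rule and its given marker Ccl22 varied widely from cell to cell. UMIs of Ccr7 ran from 2 through a median of 34.5 to 111 in WT_LW and from 2 through 16 to 94 in TLR9agonist_LW. Those of Fscn1 ran from 2 through 21.5 to 96 and from 2 through 12 to 61, and those of H2-Aa from 5 through 39 to 344 and from 6 through 52 to 212. Ccl22 ran from 0 through 11 to 264 in WT_LW and from 0 through 8 to 108 in TLR9agonist_LW, with no UMI in 6 of 64 and 10 of 75 cells. The ranges of all 4 genes overlapped almost fully between the libraries. Summed over the gate, Ccr7 stood at 3105 CPM in WT_LW against 1585 CPM in TLR9agonist_LW, Fscn1 at 2013 and 1067 CPM, and H2-Aa at 4386 and 4051 CPM.

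**Figure D2:**
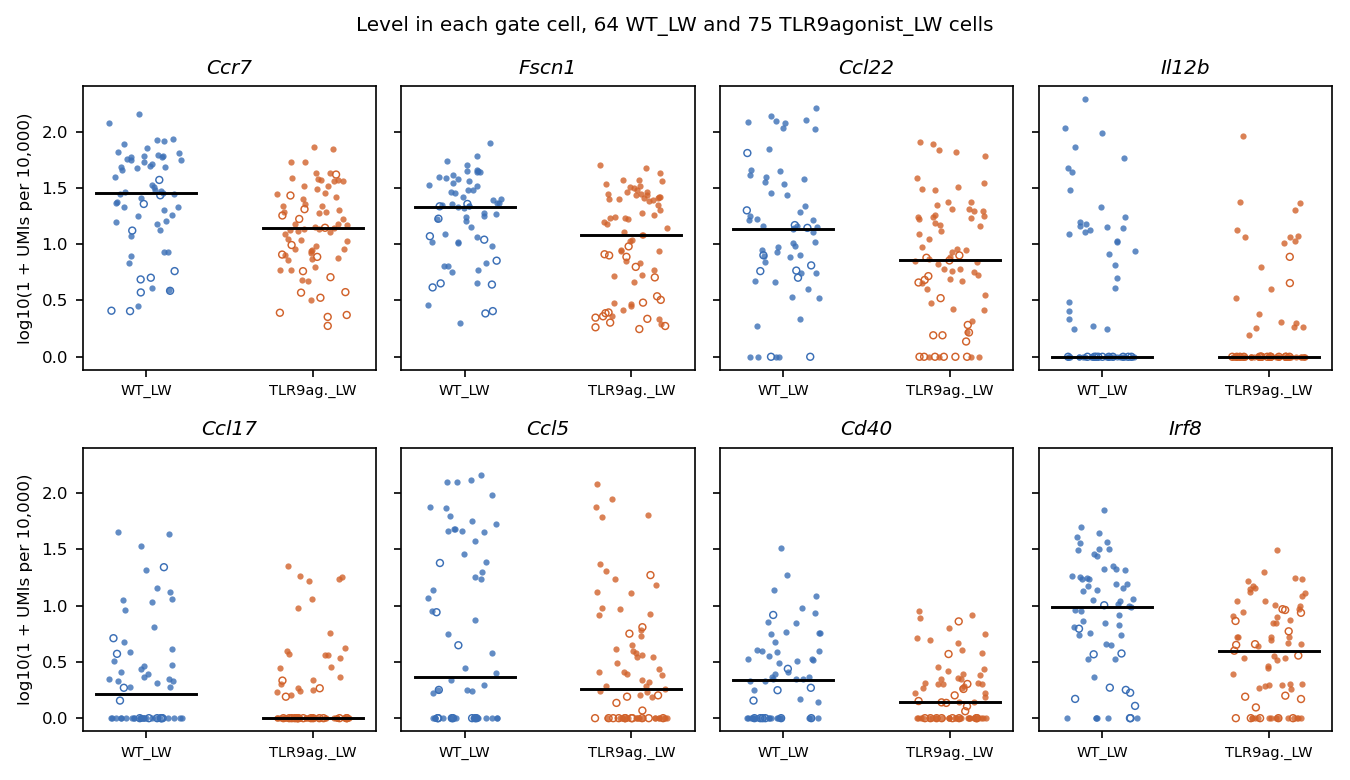
UMIs of a gene per 10000 UMIs of the cell, as log10(1 + value), for genes of the gate and its secreted products, 1 point per gate cell in each library; filled points are low-marker cells, open points the other gate cells and black bars the medians. Ccr7 and Fscn1 are seen in every cell, while Il12b, Ccl5 and Ccl17 are at 0 in many cells and high in a few. Over all gate cells the median Il12b is 0 UMIs in both libraries.

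Of the secreted products of the programme, Il12b, Ccl22, Ccl5 and Ccl17 were all more than 2-fold lower in the TLR9agonist_LW gate, while other chemokines, Ccl2 and Cxcl1 among them, were more than 2-fold higher. As background for such counts, of 4265 genes with at least 50 UMIs in the gate, 258 (6.05%) were 2-fold or more higher in TLR9agonist_LW and 251 (5.89%) 2-fold or more lower. With each ratio taken relative to the median gene (log2 ratio of -0.18), the split was 326 higher and 143 lower. In the low-marker cells 101 of 2925 genes (3.45%) were higher and 160 (5.47%) lower by that much. Since the median gene was itself slightly below 0, a log2 ratio of about -0.2 is what a typical gene of the gate had.

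Il12b had 1018 UMIs in the WT_LW gate and 298 in the TLR9agonist_LW gate, 1277 and 249 CPM, a log2 ratio of -2.36 (-2.55 to -2.17). Per cell it ran from 0 to 206 UMIs in WT_LW and from 0 to 107 in TLR9agonist_LW, so over all gate cells the level rested on a minority. With at least 1 UMI it was seen in 31 of 64 and 22 of 75 gate cells. After every gate cell had been thinned to 3000 UMIs the shares were 39.1% (27.1 to 52.1) and 22.7% (13.8 to 33.8), intervals that overlapped. Of the low-marker cells, 31 of 53 in WT_LW (median 2 UMIs) and 20 of 57 in TLR9agonist_LW (median 0) had Il12b before thinning. In T cells, which do not make this subunit, the thinned share was 0.219% and 0.0918%. The log2 ratio was -2.13 in the low-marker cells and -2.70 (-2.93 to -2.47) once the cell with the most Il12b UMIs had been left out of each library. Il12a, the other subunit of IL-12, had no UMI in the gate, and Il23a, that of IL-23, had 4 UMIs in WT_LW and none in TLR9agonist_LW.

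Ccl22 stood at 2795 CPM in WT_LW (2229 UMIs) and 1027 CPM in TLR9agonist_LW (1228 UMIs), a log2 ratio of -1.45 (-1.55 to -1.34) and of -1.06 in the low-marker cells. The share of cells with Ccl22 differed less than its level: in cells thinned to 3000 UMIs it was 82.8% (71.3 to 91.1) and 73.3% (61.9 to 82.9), and in the low-marker cells 83.0% and 86.0%. In T cells the thinned share of Ccl22 was 1.90% and 0.826%. Ccl17 stood at 406 and 162 CPM, with a log2 ratio of -1.33 (-1.59 to -1.06), -0.85 in the low-marker cells, with 0 to 89 UMIs per cell in WT_LW and 0 to 41 in TLR9agonist_LW. Thinned, Ccl17 was seen in 31.2% (20.2 to 44.1) and 21.3% (12.7 to 32.3) of gate cells.

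Ccl5, a chemokine for T cells and other leukocytes, stood at 1811 CPM in WT_LW against 660 CPM in TLR9agonist_LW, a log2 ratio of -1.46 (-1.58 to -1.33) and -1.08 in the low-marker cells. A single TLR9agonist_LW cell held 26.5% of its Ccl5 UMIs, and with the highest cell of each library left out the log2 ratio was -1.70. T cells make Ccl5 too and had 897 and 532 CPM. Cxcl16, which attracts CXCR6-bearing T cells, hardly differed, with 847 and 745 CPM and a log2 ratio of -0.18 (-0.33 to -0.04), at the level of the median gene. Ccl4 had 120 and 115 CPM, but 51.8% of its TLR9agonist_LW UMIs lay in 1 cell and the low-marker log2 ratio was -1.84.

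**Figure D3:**
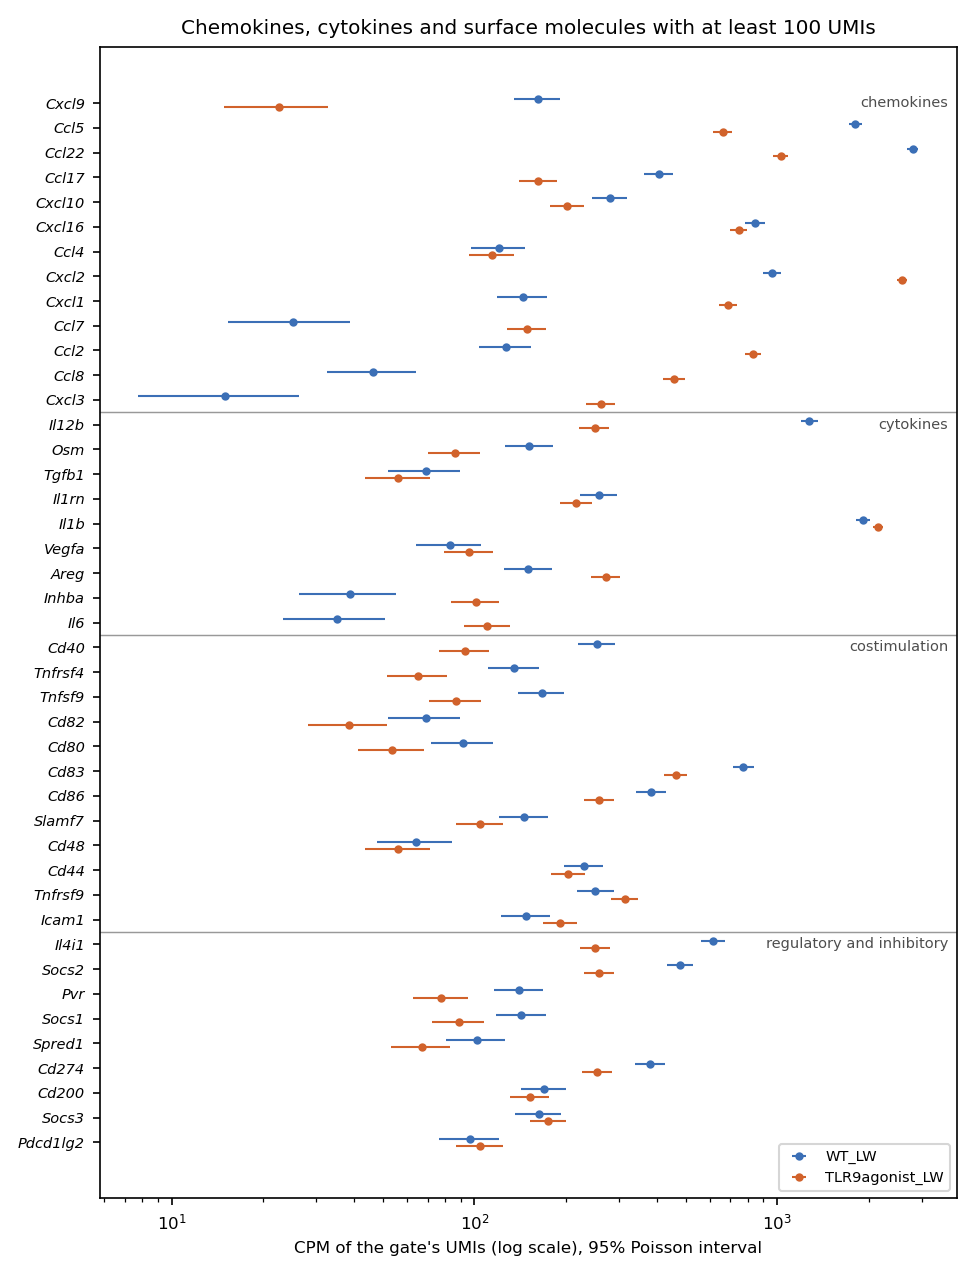
Level of named secreted and surface genes in the gate (CPM, log axis) in WT_LW and TLR9agonist_LW, 1 library each, with exact Poisson 95% intervals of the counts as bars. Il12b (1277 and 249 CPM), Ccl22 (2795 and 1027), Ccl5 (1811 and 660) and Cd40 (253 and 92.8) are lower in TLR9agonist_LW, while Cxcl2 (961 and 2580) and Ccl2 (127 and 833) are higher.

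The chemokines that were higher in TLR9agonist_LW were those that attract neutrophils and monocytes, and they were higher in T cells as well. Cxcl2 stood at 961 and 2580 CPM in the gate (log2 ratio of 1.43, 1.31 to 1.54), against 266 and 2827 CPM in T cells. Ccl2 stood at 127 and 833 CPM (2.72, 2.42 to 3.03), against 66.8 and 683 CPM in T cells. Cxcl1 stood at 144 and 686 CPM (2.25, 1.97 to 2.54), against 117 and 589 CPM in T cells. Cxcl3 had 12 and 312 UMIs in the gate and 19.0 and 526 CPM in T cells, and in a looser gate with at least 1 UMI each of Ccr7 and Fscn1 (93 and 103 cells) its log2 ratio of 4.12 became -0.03. Ccl7 stood at 25.1 and 149 CPM in the gate and 27.0 and 219 CPM in T cells. Levels in TLR9agonist_LW were lower in the low-marker cells than in the whole gate, with Cxcl2 at 810 and 1737 CPM (log2 ratio of 1.10), Ccl2 at 43.1 and 216 CPM (2.33), Cxcl1 at 92.7 and 420 CPM (2.18), Cxcl3 at 19.2 and 103 CPM (2.43) and Ccl7 at 16.0 and 37.2 CPM (1.22, 0.12 to 2.44). All 5 genes were thus higher in TLR9agonist_LW in the gate, in the low-marker cells and in T cells, and what part free RNA has in the gate's levels was not tested. Ccl8 (46.4 and 456 CPM) rested on 1 cell with 57.5% of its TLR9agonist_LW UMIs, and its log2 ratio of 3.30 was -0.32 in the low-marker cells. Cxcl9 had 129 UMIs in WT_LW, 99.2% of them in 1 cell, so its log2 ratio of -2.84 became 3.31 without the highest cells. Cxcl10, which like Cxcl9 is induced by interferon, had 280 and 202 CPM with 57% of the WT_LW UMIs in 1 cell, and its log2 ratio of -0.47 was 0.28 without the highest cells.

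Among 17 chemokine genes with at least 30 UMIs, 7 were 2-fold or more higher and 5 2-fold or more lower in TLR9agonist_LW, with a median log2 ratio of -0.07, against -0.17 for all 5866 genes with at least 30 UMIs, of which 37.2% were above 0, 6.89% that much higher and 7.43% lower. The counts above and below 0 in the lists that follow are to be read against these shares. In the low-marker cells 5 of 15 were higher and 5 lower, with a median of -0.32, against 4.05% and 6.7% of 4195 genes. Ccl19, a ligand of CCR7 that dendritic cells can make, had no UMI in either gate.

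Of the cytokines other than Il12b, Il1b, which starts inflammation, was abundant and nearly equal, with 1917 and 2148 CPM and a log2 ratio of 0.16 (0.07 to 0.26), -0.19 in the low-marker cells. Il1rn, its antagonist, had 257 and 217 CPM, and Osm, which acts on stromal cells, 152 and 86.1 CPM with a log2 ratio of -0.82 (-1.21 to -0.43). Il6 stood at 35.1 and 110 CPM (1.65, 1.06 to 2.30, and 1.26 in the low-marker cells), beside 9.31 and 82.9 CPM in T cells. Areg, a growth factor for epithelium, stood at 151 and 272 CPM, a log2 ratio of 0.85 that was -1.41 in the low-marker cells, beside 267 and 3035 CPM in T cells. Inhba behaved like Areg, with a log2 ratio of 1.38 in all gate cells and -0.82 in the low-marker cells. Vegfa had 82.8 and 96.1 CPM and Tgfb1 69.0 and 56.0 CPM. The genes at the ends of the list with fewer UMIs were Ebi3 (38 and 23 UMIs, log2 ratio -1.31), Csf1 (5 and 40, 2.41) and Il33 (5 and 59, 2.98, with 5.73 and 75.6 CPM in T cells). Over the 16 cytokines with at least 30 UMIs the median log2 ratio was 0.12 with 9 above 0 and 7 below, and over 12 in the low-marker cells it was -0.71 with 2 above 0 and 10 below.

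Of the costimulatory genes, Cd40, through which helper T cells license a dendritic cell, stood at 253 CPM (202 UMIs) in WT_LW against 92.8 CPM (111 UMIs) in TLR9agonist_LW, a log2 ratio of -1.45 (-1.80 to -1.11) and of -1.40 in the low-marker cells. Thinned to 3000 UMIs, Cd40 was seen in 35.9% (24.3 to 48.9) and 20% (11.6 to 30.8) of cells, against 0.948% and 0.459% of T cells. Cd86 stood at 382 and 257 CPM (-0.57, -0.80 to -0.34), Cd83, a maturation marker, at 771 and 461 CPM (-0.74, -0.91 to -0.57), and Cd80 at 91.5 and 53.5 CPM (-0.77). The TNF family members Tnfsf9 (4-1BB ligand, 167 and 86.9 CPM) and Tnfrsf4 (OX40, 135 and 65.2 CPM) had log2 ratios of -0.94 and -1.05. Cd1d1, which presents lipids to NKT cells, had 38 and 9 UMIs, the lowest ratio of the list at -2.66 (-3.90 to -1.59). Higher in TLR9agonist_LW were Tnfrsf9 (4-1BB), with 251 and 314 CPM (0.32, 0.07 to 0.58), and Icam1, the adhesion partner of LFA-1, with 148 and 192 CPM (0.38, 0.05 to 0.71), beside 119 and 549 CPM of Tnfrsf9 in T cells. Without the highest cell of each library Icam1 was at 0.11 (-0.25 to 0.47) and Tnfrsf9 at 0.32 (0.05 to 0.58). Cd70 was the highest of the list at 0.47, with 61.1% of its TLR9agonist_LW UMIs in 1 cell and a log2 ratio of -0.31 without the highest cells. Cd44 (229 and 204 CPM) and Slamf7 (145 and 104 CPM) had log2 ratios of -0.17 and -0.48, Cd82 -0.84 and Cd48 -0.19. Of 16 costimulatory genes with at least 30 UMIs 13 were below 0 and 3 above, where 37.2% of all genes were above, the median was -0.66, and 4 were 2-fold or more lower. In the low-marker cells 12 of 16 were below 0 and the median was -0.57.

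Of the regulatory genes, Il4i1, an enzyme that breaks down phenylalanine and restrains T cells, stood at 614 and 250 CPM, with a log2 ratio of -1.30 (-1.51 to -1.09) and -1.09 in the low-marker cells, and per cell ran from 0 through 4 to 28 UMIs in WT_LW and from 0 through 2 to 32 in TLR9agonist_LW. Cd274, which encodes PD-L1, stood at 381 and 254 CPM (-0.59, -0.82 to -0.35). Socs2 and Socs1, inhibitors of cytokine signalling, had log2 ratios of -0.89 and -0.69, while Socs3 had 0.11, Pdcd1lg2 (PD-L2) 0.11 and Cd200 -0.15, all 3 with intervals that held 0. Without the highest cell of each library Socs3 was at 0.57 (0.18 to 0.96). Pvr had -0.85 and Spred1 -0.60. At the upper end Havcr2 (TIM-3) had 15 and 52 UMIs, a log2 ratio of 1.21 that became -0.05 in the looser gate, and Entpd1 had 0.51. The median of the 14 genes was -0.48, with 5 above 0 and 9 below, near the share of all genes. Aldh1a2, which makes the retinoic acid that imprints gut homing, had 4 and 3 UMIs.

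Antigen presentation by MHC class I was lower in TLR9agonist_LW in nearly the whole list, while class II differed gene by gene. B2m, the class I light chain, had 3838 and 2175 CPM (log2 ratio of -0.82, -0.89 to -0.74), and the heavy chains H2-K1 and H2-D1 had -0.78 and -0.60. H2-Q7 (559 and 239 CPM, -1.23) and Tapbp, the tapasin that loads peptide (280 and 118 CPM, -1.25), were lowest. The immunoproteasome subunit Psmb8 had -0.73 and the peptide transporters Tap1 and Tap2 -0.67 and -0.87. Of the 19 genes 18 were below 0 with a median of -0.78, and in the low-marker cells 17 of 18 with a median of -0.62. The exception in both sets of cells was Pdia3, a chaperone of the endoplasmic reticulum (171 and 247 CPM, 0.53), and the next highest over all gate cells was another, Calr, at -0.32. In T cells B2m stood at 2792 and 1899 CPM, H2-K1 at 2041 and 1670 CPM and Tapbp at 126 and 65.2 CPM, lower in TLR9agonist_LW too.

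For class II, Cd74 (10265 and 8737 CPM, log2 ratio -0.23), H2-Aa and H2-Eb1 (4358 and 3959 CPM, -0.14) were near the median gene. H2-Ab1 stood at 3866 and 2318 CPM (-0.74, -0.81 to -0.66), and the peptide exchange genes H2-DMa and H2-DMb1 at -1.15 and -0.90. Ctsl, a cathepsin, was the highest with 58.9 and 156 CPM (1.41), beside 59.9 and 132 CPM in T cells, and H2-Oa followed at 0.41. The median of 13 class II genes was -0.23, with 10 below 0.

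**Figure D4:**
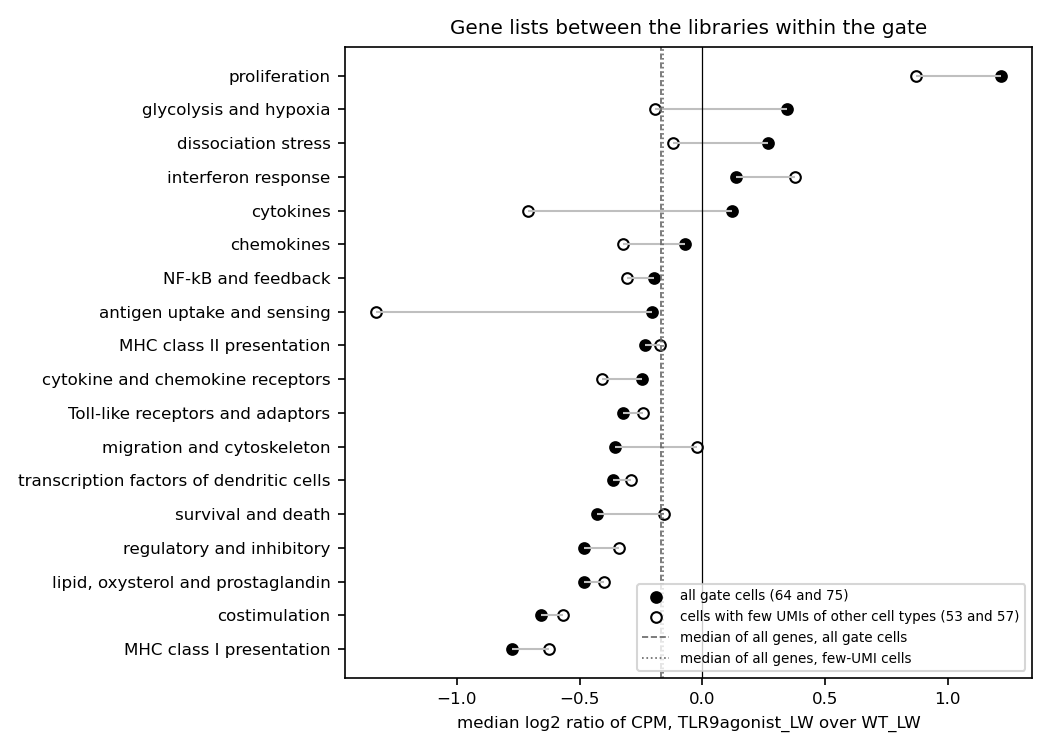
Median log2 ratio (TLR9agonist_LW over WT_LW, x axis) of each gene list in the gate, filled for all gate cells and open for the low-marker cells, with the medians of all genes as vertical lines. MHC class I presentation (-0.78 and -0.62) and costimulation (-0.66 and -0.57) lie to the left in both sets of cells, proliferation (1.22 and 0.87) lies to the right in both, and dissociation stress, glycolysis and cytokines change side.

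Of the transcription factors, Irf8, needed for type 1 dendritic cells and for Il12b in other settings, was lowest. It stood at 1149 CPM (916 UMIs) in WT_LW against 409 CPM (489 UMIs) in TLR9agonist_LW, a log2 ratio of -1.49 (-1.65 to -1.33), the same -1.49 in the low-marker cells, and -1.47 without the highest cell of each library. Per cell Irf8 ran from 0 through 10.5 to 66 UMIs and from 0 through 3 to 30. Thinned to 3000 UMIs, it was seen in 76.6% (64.3 to 86.2) and 54.7% (42.7 to 66.2) of cells, against 3.94% and 7.21% of T cells. Batf3, its partner, had 173 and 120 CPM (-0.52, -0.87 to -0.18), Id2 1282 and 799 CPM (-0.68) and Nr4a2 -0.76. Ahr, a sensor of aromatic ligands, was highest with 35 and 133 UMIs, 43.9 and 111 CPM, a log2 ratio of 1.34 (0.79 to 1.92) and of 1.52 in the low-marker cells, and T cells had 50.8 and 37.6 CPM. Prdm1 followed with 23.8 and 43.5 CPM (0.87). Relb, the NF-kB subunit of mature dendritic cells, had 278 and 244 CPM (-0.19, -0.45 to 0.07). Over the 29 factors the median was -0.36 with 19 below 0.

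NF-kB and its feedback genes spread around the median gene. Nfkbia (2083 and 1786 CPM, -0.22) and Nfkb1 (483 and 424 CPM, -0.19) hardly differed, whereas Nfkb2 (168 and 81.9 CPM, -1.04), Traf1 (1115 and 632 CPM, -0.82), Tnip3 (260 and 99.5 CPM, -1.38) and Tbk1 (36 and 21 UMIs, -1.36) were lower, and Bcl10 and Birc3 were highest at 0.36 and 0.29 with intervals that held 0. The median of 30 genes was -0.20.

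Tlr9, the receptor of the agonist, had 2 UMIs in the WT_LW gate and 1 in the TLR9agonist_LW gate, too few for a ratio. Of the other receptors Tlr2 had 18 and 34 UMIs, Tlr7 0 and 6, Tlr3 0 and 3, and Tlr6, Tlr8 and Tlr11 none. The adaptor Myd88 had 15 and 19 UMIs (-0.24), and Unc93b1, which carries TLR9 to endosomes, 35 and 33 (-0.67). Genes of this list with over 100 UMIs were Lgmn (-0.21), Cd14 (92.8 and 157 CPM, 0.76, and -0.08 in the low-marker cells), Irf5 (-0.15), Tab2 (-0.72), Traf3 (-0.40) and Irak1 (-0.73). Irak2 was highest at 0.89, and Irf3 and Traf6 were lowest at -1.24 and -0.81. The median of the 15 genes measured was -0.32, with 11 below 0. Interferon response genes were not lower as a group, with 14 of 23 above 0 and a median of 0.14, and 9 of 11 with a median of 0.38 in the low-marker cells. Xaf1 (8 and 31 UMIs, 1.37) and Ifi205 (19 and 68 UMIs, 1.25, -0.61 in the low-marker cells) were highest and Ifih1 (23 and 11 UMIs, -1.65) and Rsad2 (-0.59) lowest.

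Genes of migration and the cytoskeleton had a median of -0.36 with 20 of 25 below 0, and of -0.02 with 13 of 22 below 0 in the low-marker cells. Cacnb3, a calcium channel subunit typical of these cells, stood at 500 and 258 CPM (-0.95, and -0.67 in the low-marker cells), Itgb8 at 22 and 11 UMIs (-1.59), Vim at 0.35 (0.95 in the low-marker cells) and Mmp14, a collagenase, at 0.94. Receptors for cytokines and chemokines had a median of -0.25, from Il15ra (89.0 and 34.3 CPM, -1.38), which presents IL-15 to lymphocytes, and Csf1r (-1.22) to Tgfbr2 (26.3 and 51.8 CPM, 0.98). Flt3, the growth factor receptor of dendritic cells, had 176 and 89.4 CPM (-0.97). Of the survival genes 16 of 19 were below 0 with a median of -0.43, from Bcl2 (22 and 9 UMIs, -1.87) and Casp8 (-0.93) to Bcl2l1 (0.32) and Casp4 (0.70), and in the low-marker cells 11 of 18 with a median of -0.15. Uptake genes had a median of -0.20 over 14 and of -1.33 over the 7 left in the low-marker cells, where all were below 0. The Fc receptor Fcgr2b (-1.36) and the lectin Clec4n (-1.30) were lowest, Cd209d (0.89) and Stab1 (0.66) highest, and Ly75, the lectin DEC-205, had 285 and 137 CPM (-1.05).

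Of the lipid and prostaglandin genes, with a median of -0.48 over 16, Ptgs1 (-1.72) and Insig1 (-1.47) were lowest and Ptgs2, or COX-2, (266 and 397 CPM, 0.58, and -0.48 in the low-marker cells) and Apol7c (221 and 319 CPM, 0.53, and 0.95 in the low-marker cells) highest. Of the WT_LW UMIs of Ptgs1, 81.8% lay in 1 cell. Proliferation genes were all above 0 (10 of 10, median 1.22, and 6 of 6 with a median of 0.87 in the low-marker cells), with Ube2c (3 and 68 UMIs, 3.92, 2.31 to 6.23) and Cdk1 (3 and 27 UMIs, 2.58, 0.88 to 4.95) highest and Tyms (0.17) and Pcna (0.34) lowest. A single cell held 50% of the Ube2c UMIs of TLR9agonist_LW. Cells with a UMI of Mki67 or Top2a numbered 19 in each library. Glycolysis genes were above 0 in 18 of 20 (median 0.34) but in 5 of the 14 measured in the low-marker cells (median -0.19), from Gapdh (-0.08) and Pfkp (-0.01) to Slc2a1 (1.33, and -0.74 in the low-marker cells) and Slc16a3 (1.97). Stress genes of tissue dissociation had a median of 0.27, and -0.12 in the low-marker cells. Heat shock genes led that list, with Hspa1b at 642 and 2281 CPM (1.83) and Hsph1 at 1.62, and T cells had 1005 and 3595 CPM of Hspa1b. Zfp36 (-0.88) and Klf6 (-0.60) were lowest in it.

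Over all genes, the 12 highest ratios of TLR9agonist_LW over WT_LW were mostly genes of keratinocytes and fibroblasts. They were Cxcl3, Krt17, Vcam1, Mfap4, Tnfaip6, Ccl8, Stfa1, Krt16, Calm4, Aspn, Thbs2 and Serpinb5, with log2 ratios from 4.12 to 2.96. All 12 were also higher in T cells of TLR9agonist_LW, as for Krt16 (161 and 595 CPM) and Mfap4 (40.1 and 407 CPM), and the keratinocyte and fibroblast lists moved with them as given above. Among the 12 lowest, Rgs5 (195 and 17 UMIs, -4.10), Col4a1 (-2.60), Col4a2 (-2.05) and Col18a1 (-1.91) are genes of pericytes and vessels, and 1 cell held 52.3% of the WT_LW UMIs of Rgs5. T cells had less of Rgs5 (319 and 139 CPM) and Col4a1 (198 and 92.1 CPM) in TLR9agonist_LW as well. In the low-marker cells Col4a1, Col4a2, Col18a1 and Scd1 changed sign, to 1.39, 2.04, 1.06 and 1.29. The lowest ratios that stayed below -1 in both sets of cells were those of Il12b, Cfp (73 and 30 UMIs, -1.87 and -2.76), Specc1 (-1.82 and -1.45), Gatsl2 (-1.79 and -1.64), Cdk12 (-1.67 and -1.86), Ccdc88a (352 and 112 CPM, -1.65 and -1.32) and Safb2 (-1.60 and -1.46). Cfp encodes properdin of the complement system, and Ccdc88a encodes girdin, an actin-binding protein of cell migration.

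The gate cells were compared with the Cd209a cells of their own library, the most numerous dendritic cells without Ccr7. Of 4693 genes with at least 100 UMIs in the cells compared, 328 (6.99%) were 2-fold or more higher in the gate in both libraries and 296 (6.31%) 2-fold or more lower in both. Serpinb6b, a protease inhibitor, had the highest ratio, with 1121 against 5.63 CPM in WT_LW (log2 ratio of 7.64) and 620 against 9.14 CPM in TLR9agonist_LW (6.08). Cacnb3 (6.79 and 5.08), Ccl5 (6.40 and 4.59), Tbc1d4, which acts on glucose uptake (5.08 and 4.51), and Zmynd15 (4.94 and 4.96) followed on at least 5 UMIs in each group of Cd209a cells. For the other 7 the Cd209a cells of a library had 3 UMIs or fewer, so the ratios have wide intervals. They were Ly75 at 5.98 (4.98 to 7.21) and 5.49 (3.62 to 8.55), Slc4a8 at 6.43 (4.84 to 8.73) and 5.49 (2.97 to 10.81), Nudt17 at 6.44 (4.86 to 8.74) and 5.23 (3.35 to 8.29), and Eno3, a muscle-type enolase, at 5.81 (4.65 to 7.28) and 5.08 (3.51 to 7.37). Tcf7, a transcription factor better known from T cells, was at 7.60 (5.08 to 12.92) and 5.26 (2.74 to 10.59), Mreg at 7.38 (4.86 to 12.71) and 4.56 (2.98 to 6.86), and Adora2a, an adenosine receptor, at 5.85 (4.25 to 8.16) and 4.97 (2.43 to 10.30). The lowest ratios were those of Clec10a, a lectin of cDC2 (-4.32 and -4.11), Ccr2, the monocyte receptor for Ccl2 (-3.90 and -4.52), Gpr171 (-3.75 and -3.58) and Mmp12 (-3.43 and -3.43). Cysltr1, a leukotriene receptor, had 2 UMIs in each gate and ratios of -4.11 (-7.18 to -2.21) and -4.11 (-7.26 to -2.06). March1, which removes MHC class II from the surface, had 3 and 2 UMIs and ratios of -3.62 (-5.93 to -2.02) and -3.57 (-6.76 to -1.42). The rule asked for the same direction in both libraries.

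**Figure D5:**
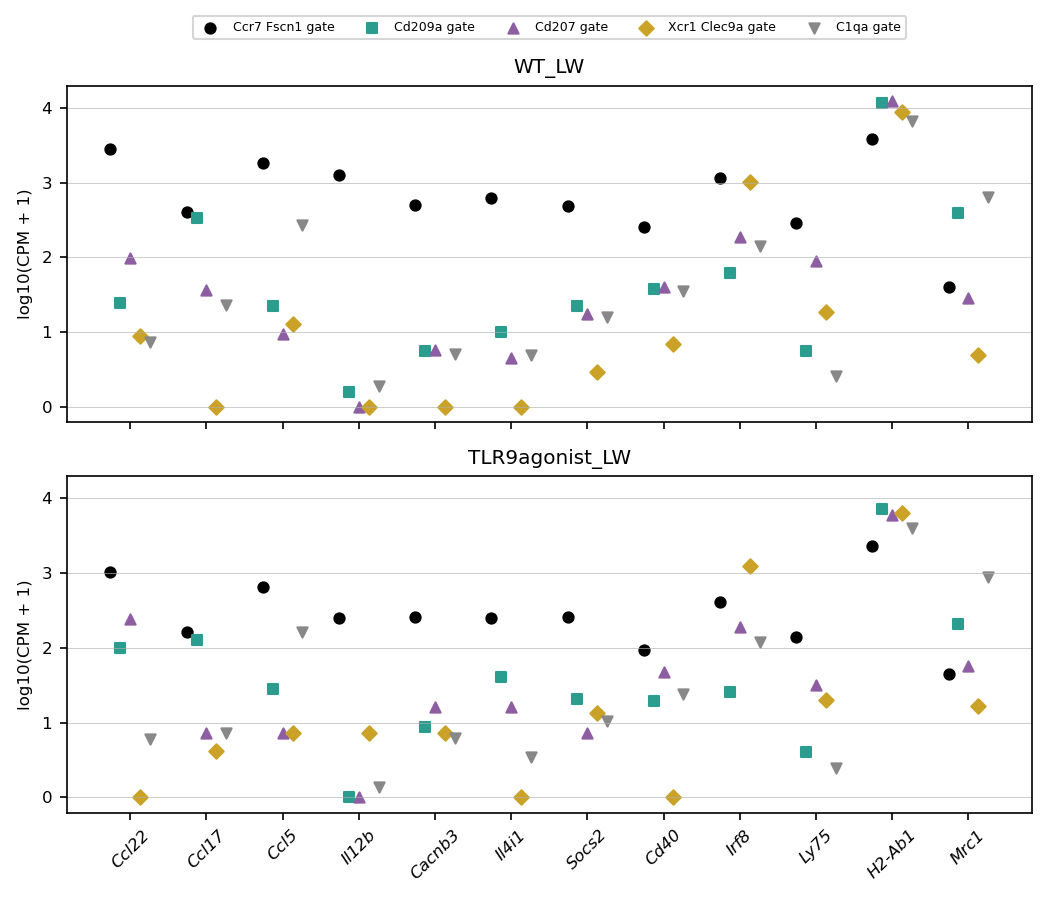
Level of 12 genes as log10(CPM + 1) in the migratory gate, in the 3 other dendritic gates (Cd209a, Cd207, Xcr1 or Clec9a) and in C1qa macrophages, for WT_LW and TLR9agonist_LW; points at 0 are genes with no UMI. Ccl22, Il12b, Cacnb3 and Il4i1 are highest in the migratory gate in both libraries, whereas Ccl17 is close to its level in the Cd209a gate.

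In the comparison gates, all chosen to have no Ccr7, Il12b was hardly seen: the Cd209a cells had 1 and 0 UMIs, the Cd207 cells none, the Xcr1 or Clec9a cells 0 and 2, and the 635 and 523 C1qa macrophages 6 and 2, against 1018 and 298 in the gate. Cells with Ccr7 that missed the gate are not among these. Ccl22 behaved differently. It was 6.88 log2 units higher in the gate than in Cd209a cells of WT_LW (2795 against 23.7 CPM) but 3.40 units higher in TLR9agonist_LW (1027 against 97.5 CPM). In the Cd207 cells Ccl22 stood at 96.6 CPM in WT_LW (82 UMIs) and 240 CPM in TLR9agonist_LW (78 UMIs). The levels of Ccl22 in the Cd209a and Cd207 cells were thus higher in TLR9agonist_LW, on 42 to 82 UMIs a group, while that in the gate was lower, a difference in direction that 1 library per group cannot test. Ccl17 differed little between Cd209a cells (336 and 128 CPM) and the gate (406 and 162 CPM), with log2 ratios of the gate over the Cd209a cells of 0.27 (0.07 to 0.47) and 0.34 (-0.04 to 0.73). Irf8 in the gate was at the level of the Xcr1 or Clec9a cells in WT_LW (1149 against 1027 CPM, 0.16) and below it in TLR9agonist_LW (409 against 1258 CPM, -1.62). Class II was lower in the gate than in Cd209a cells, with log2 ratios for H2-Ab1 of -1.60 and -1.62 and for Cd74 of -1.01 and -0.85. Cd274 was 2.45 and 1.15 log2 units higher in the gate, and Cd86 0.89 and 0.03, the last with an interval that held 0 (-0.25 to 0.31). Il1b was 0.16 lower in the gate in WT_LW and 1.41 lower in TLR9agonist_LW, where Cd209a cells had 5722 CPM. Apol7c had 176 and 382 UMIs in the gate, 1 and 0 in Cd209a cells and none in the Cd207 cells or in the Xcr1 or Clec9a cells of either library.

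Within the gate, cells with at least 2 UMIs of Il12b were 27 of 64 (42.2%, 29.9 to 55.2) in WT_LW and 16 of 75 (21.3%, 12.7 to 32.3) in TLR9agonist_LW, and of the low-marker cells 27 of 53 and 14 of 57. The depth of the Il12b cells (median 11769 and 12419 UMIs) was near that of the other gate cells (11610 and 12635). In WT_LW the Il12b cells had more Irf8 than the others (1832 against 645 CPM), more Cd40 (449 against 109 CPM), more Serpinb6b (1852 against 582 CPM), more Ccl5 (2937 against 981 CPM) and more Ccl22 (4157 against 1791 CPM), but less Ccl17 (254 against 519 CPM). Ccl5 was seen in 17 of these 27 Il12b cells and in 22 of the 37 others, and Ccl22 in 25 and 33. Median UMIs per cell were 4 and 1 for Ccl5 and 15 and 10 for Ccl22. They were 17 and 4 for Irf8, 2 and 1 for Cd40 and 17 and 3 for Serpinb6b. The summed levels of Ccl5 and Ccl22 thus differed more than the shares of cells with them. The low-marker cells of WT_LW held the same 27 Il12b cells but 26 others. Those 26 had 954 CPM of Irf8, 146 of Cd40 and 870 of Serpinb6b. They had 1371 CPM of Ccl5, 2394 of Ccl22 and 745 of Ccl17. Of these 26 cells 18 had Ccl5, with a median of 4.5 UMIs against 4 in the Il12b cells. A single cell among the 26 held 89 of their 214 Ccl17 UMIs. It had no UMI of Ccl22, Cacnb3 or Il4i1, and 111 of the monocyte list. In TLR9agonist_LW the Il12b cells likewise had more Irf8 (740 against 321 CPM) and Cd40 (147 against 78.3 CPM). They also had more Serpinb6b (871 against 554 CPM) and Ccl22 (1742 against 836 CPM). Cd40 was seen in 9 of 16 Il12b cells and 32 of 59 others, with a median of 1 UMI in both. Ccl5 was close (740 against 639 CPM) and Ccl17 was higher (270 against 133 CPM). However, 1 Il12b cell held 114 of their 186 Ccl5 UMIs and 41 of their 68 Ccl17 UMIs. In the low-marker cells Ccl5 was lower in the Il12b cells (888 against 1102 CPM). Summed over cells, H2-Aa was close in the Il12b cells and the others (4434 against 4349 CPM and 4025 against 4058 CPM). Its median per cell in WT_LW was 23 UMIs in the Il12b cells and 52 in the others. In the low-marker cells the log2 ratio of H2-Aa in Il12b cells over the others was -0.24 (-0.34 to -0.13) in WT_LW. In TLR9agonist_LW it was 0.19 (0.08 to 0.31). Cells were grouped here by a measured gene, so these values describe the gate and carry no test. Irf8 was lower in TLR9agonist_LW both in the Il12b cells (1832 and 740 CPM) and in the others (645 and 321 CPM), as was Ccl22 (4157 and 1742 CPM, 1791 and 836 CPM). Ccl17 did not follow them, with 254 and 270 CPM in the Il12b cells, the latter with 41 of 68 UMIs in 1 cell. In the others it stood at 519 and 133 CPM, with 89 of the 238 WT_LW UMIs in 1 cell.

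Cells with at least 2 UMIs of Ccl17 were 22 of 64 and 16 of 75, and 9 and 3 cells had both Il12b and Ccl17. At least 2 UMIs of Cd207 or Epcam, genes of Langerhans cells, were counted in 8 of 64 (12.5%, 5.55 to 23.2) and 20 of 75 cells (26.7%, 17.1 to 38.1), and of the low-marker cells in 8 of 53 and 11 of 57. Epcam is also made by keratinocytes, whose list was higher in the TLR9agonist_LW gate as given above. Cd207 itself had 45 and 239 UMIs, 49.8% of the latter in 1 cell, which also held 2827 UMIs of the fibroblast list. Thinned, Cd207 was seen in 6.25% and 13.3% of gate cells and in 0.948% and 1.01% of T cells. Mfge8, abundant in Langerhans cells, stood at 1393 and 848 CPM in the gate against 46.8 and 53.3 CPM in Cd209a cells and 4816 and 2195 CPM in Cd207 cells. At least 2 UMIs summed over Cd209a, Mgl2 and Clec10a were counted in 9 of 64 and 8 of 75 cells.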

How the data were processed

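Single-cell RNA of wound skin was measured with 10x Genomics 3' chemistry in 1 library per group. The values are UMI counts for each gene in each cell barcode, as the authors deposited them, and per the file headers Cell Ranger 4.0.0 wrote them; the labels' processing notes also name fastp, Seurat and mm9. No annotation of cells was used, and cells were chosen by the UMI rule given above. Here UMIs were summed over gate cells and scaled to CPM of the gate's UMIs. Genes 2-fold or more apart between libraries were counted among those with at least 50 UMIs in both libraries together, and lists over genes with at least 30. Ratios of named genes are also given on fewer than 50 UMIs. Genes of the rule were left out of counts and medians. Genes at 0 in a library have no ratio. The members and the lists were chosen with earlier results of these data known, and no p adjusted over a list is given.

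Named genes were those of the rule, the 2 highest and 2 lowest of each list (at least 30 UMIs, at least 3 in each library), genes with at least 100 UMIs of 5 lists (chemokines, cytokines, costimulation, regulatory, Toll-like receptors), and over all genes the 12 highest and 12 lowest between libraries and the 12 highest and 6 lowest against the Cd209a gate (at least 100 UMIs, 10 in each library, and in at least 10% of cells where higher). Gene models, ribosomal, mitochondrial and antigen receptor genes were counted but not named. Genes named beside these were chosen after their values were seen. A gene that the rule would name is not reported here. The comparison gates for Cd209a, Cd207, Xcr1 or Clec9a, and C1qa (at least 5 UMIs) had no Ccr7. They also asked for at least 5 UMIs of H2-Aa and fewer than 2 of Cd3. Cells in more than 1 of these comparison gates were left out of all of them. For shares of cells with a UMI, each cell was thinned to 3000 UMIs; no gate cell was shallower. Doublets were not removed before the main values, and an alternative left out the cells with the highest Scrublet scores. T cells, not keratinocytes or fibroblasts as first planned, gave the comparison for free RNA. For genes that T cells make themselves, their level does not measure free RNA. Intervals came from scipy 1.17.1 and doublet scores from scanpy 1.11.5 under Python 3.11.15, and the ratio step was tested on simulated data.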

Additional observations from a re-analysis of the deposited data

How the results depend on the processing

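The log2 ratio of the gate share moved by less than its counting interval under the stricter cell filter, both gate thresholds, the H2-Aa limit of 20, thinned cells, doublet removal and the low-marker cells, and by more only with the denominator of H2-Aa cells (log2 ratio of 0.59). Of genes 2-fold or more higher and lower (258 and 251), 430 were lower with at least 1 UMI each of Ccr7 and Fscn1 (the looser gate), 29 were higher and 43 lower in thinned cells, 66 were higher without doublets, 101 were higher and 160 lower in the low-marker cells, 143 were lower relative to the median gene, 85 were higher and 51 lower with at least 200 UMIs per gene, and 559 were higher and 625 lower with at least 20; fewer or more genes were tested in all but the median centring. Against the Cd209a gate 503 genes were lower in the low-marker cells. Counted whatever their size, 102 of 1347 values of named genes and 17 of 192 list medians changed sign, among them 18 named genes and 3 list medians in the low-marker cells (cytokines to -0.71, glycolysis to -0.19) and 21 and 6 without doublets. Among genes 2-fold or more apart and list medians, each with an interval that did not hold 0, these did so. The median of dissociation stress was -0.22 without doublets and -0.12 in the low-marker cells, and that of MHC class II 0.034 without doublets. In the looser gate Cxcl3 was at -0.031, Havcr2 at -0.049 and Tnfaip6 at -0.72. Among thinned cells Ccl8 was at -0.79, Cxcl3 at -1.75, Ifi205 at -0.53 and Scd1 at 1.22. Without doublets Ifi205 was at -1.44, Inhba at -0.58 and Slc2a1 at -0.87. In the low-marker cells Ccl8 was at -0.32, Col18a1 at 1.06, Col4a1 at 1.39, Col4a2 at 2.04, Ifi205 at -0.61, Inhba at -0.82, Scd1 at 1.29 and Slc2a1 at -0.74. Without the highest cell Cxcl9 was at 3.31 and Ptgs1 at 0.025, and of smaller differences Cxcl10 at 0.28, Cd70 at -0.31 and Lgmn at 0.033. Areg (-1.41), Ptgs2 (-0.48), Cd14 (-0.08) and Il1b (-0.19) were below 0 in the low-marker cells and above 0 in the gate. The cause of these changes was not tested. Doublet removal left out 1091 and 1412 cells, 11 and 20 of them in the gate. The limit for low-marker cells and the removal of the highest cell were chosen after seeing the data; a planned limit of under 10 UMIs of 7 marker lists left 1 and 0 cells and gave no value. No paired analysis was possible because each group had 1 library, and for the same reason no library could be left out. Depth limits the genes with under 30 UMIs, Tlr9 among them.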
